A study of Mus musculus with 21 samples.

Results

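The keratin genes Krt7, Krt8, Krt18, Krt19 and Krt42 were followed across 21 mouse bead arrays in 7 groups of 3. They were taken as every probe whose gene symbol in the platform annotation is one of these 5, which gave 8 of the 45281 probes. Of these, 7 passed the detection filter, and the other was a further Krt8 probe that was detected on no array. The genes were picked with their levels in these same arrays known, so their levels and differences are described here without a test.

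The series compares primordial germ cell-like cells (PGCLC) and the cells they were made from between a wild-type line and mutant lines. Naive mouse embryonic stem cells were turned into epiblast-like cells (EpiLC) over 2 days in N2B27 with activin, FGF and 1% serum replacement. They were then aggregated for 6 days in medium with 15% serum replacement and the germ cell-inducing cytokines BMP4, BMP8a, LIF, SCF and EGF, and cells positive for SSEA1 and CD61 were sorted from the aggregates. The lines were wild-type E14Tg2a (WT), Otx2-/- carrying the alleles Otx2 GFP/lacZ (Otx2-null), and Otx2 GFP/lacZ with Blimp1-/- (Otx2/Blimp1-null). Each line gave an EpiLC and a PGCLC group, and the seventh group was the SSEA1 and CD61 positive cells of Otx2-null aggregates kept for 6 days without cytokines. Each genotype was a single line, so genotype and line cannot be told apart, and nothing in the labels says that the 3 samples of a group were separate cultures.

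Keratins are the intermediate filament proteins of epithelia, and their filaments form from pairs of a type II and a type I protein. Krt8 and Krt18 are such a pair, the first keratins made in the mouse embryo, and with Krt7 and Krt19 they are the keratins of simple, single-layered epithelia, trophectoderm included. In mouse the type II genes lie together on chromosome 15 and the type I genes on chromosome 11, with the exception of Krt18, a type I gene that lies beside Krt8. Krt42 is a type I gene of rodents.

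Values are log2 normalized intensities, and a difference is the level in the first group minus that in the second. A level is given ± its standard deviation (SD, n = 3 arrays) and a difference ± its standard error (SE) from the limma fit. A probe was called detected on an array at a deposited detection p-value below 0.05, and detected probes numbered 14088 to 15861 on EpiLC arrays and 15961 to 19556 on day 6 arrays. The number of arrays, 3 per group, limits the precision, and the median SE of a difference between groups was 0.18. The Otx2 probe was not lower in the lines lacking the gene (WT EpiLC 10.98, Otx2-null EpiLC 11.36), and the probe's place in relation to the deletion is unknown here. Both probes of Prdm1, the gene of Blimp1, failed the detection filter, so neither gene's loss could be checked. Of 10 germ cell identity genes, 10 rose from WT EpiLC to PGCLC, where 62.8% of all genes passed in either direction, and 10 in the Otx2-null step (65.4%). In the cells kept without cytokines 9 rose (66%), and in the Otx2/Blimp1-null step 8 rose and 1 fell (43.2%). Prdm14 and Nanos3, of these genes, were undetected on every EpiLC array. They passed the detection filter only through day 6 arrays, so their calls in these steps are no support.

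Krt8, the type II partner of Krt18, was highest in WT PGCLC and was lowest in the sorted cells of the mutant lines. The 3 WT EpiLC arrays read 8.16, 8.26 and 8.06 and the WT PGCLC arrays 10.92, 9.97 and 10.06. In Otx2-null cells the EpiLC arrays read 6.79, 7.25 and 7.05, the PGCLC arrays 5.20, 6.00 and 5.40, and the arrays without cytokines 6.29, 6.62 and 4.93. In Otx2/Blimp1-null cells the EpiLC arrays read 7.99, 7.30 and 7.72 and the PGCLC arrays 6.03, 5.78 and 5.81. Every WT PGCLC array lay above every other array, and the 3 EpiLC groups lay between it and the sorted mutant cells without overlap. The neighbouring EpiLC groups were nonetheless close, with gaps of 0.06 between WT and Otx2/Blimp1-null EpiLC and 0.05 between Otx2/Blimp1-null and Otx2-null EpiLC. The 3 sorted mutant groups, at 5.95 ± 0.90 without cytokines, 5.87 ± 0.13 in Otx2/Blimp1-null and 5.53 ± 0.41 in Otx2-null PGCLC, overlapped one another. The probe was detected on all 21 arrays. The further Krt8 probe, detected on none, disagrees with it and bears on no level here.

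From EpiLC to sorted cells, Krt8 was higher by 2.16 ± 0.31 in WT and lower in each of the other settings. Otx2-null PGCLC stood at -1.50 ± 0.31, Otx2/Blimp1-null PGCLC at -1.80 ± 0.31 and the cells kept without cytokines at -1.08 ± 0.31. Leaving out single arrays, the last value ran from -1.42 to -0.57, the latter without the third array of the group without cytokines. In the authors' normalized values these differences were -0.76, -2.34 and -0.71 in the same order, and the WT difference was 2.73. Otx2-null PGCLC were 27.6-fold below WT PGCLC, a log2 difference of -4.78 ± 0.31. That difference depends on the processing, at -4.02 with an offset of 50 and -6.08 in the authors' normalized values. In a bulk sample, fewer cells of a type and less RNA per cell cannot be told apart. In EpiLC the Otx2-null line was lower than WT by a log2 difference of -1.13 ± 0.31, and Otx2/Blimp1-null EpiLC were above Otx2-null EpiLC by 0.64 ± 0.31. These EpiLC differences were -2.59 and 1.59 in the authors' normalized values.

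Krt18, the type I partner of Krt8, was detected in every EpiLC array and in WT PGCLC and was not detected in PGCLC of either mutant line. The WT EpiLC arrays read 8.36, 8.47 and 8.82 and the WT PGCLC arrays 8.64, 8.05 and 7.76. The Otx2-null EpiLC arrays read 7.58, 7.39 and 7.97 and the Otx2/Blimp1-null EpiLC arrays 7.88, 7.91 and 7.58. The Otx2-null PGCLC arrays read 4.49, 4.76 and 4.57 and the Otx2/Blimp1-null PGCLC arrays 4.88, 4.68 and 4.66, with none of the 6 detected. Without cytokines the values were 5.16, 5.57 and 4.74, with the probe detected on 2 of the 3 arrays. The arrays therefore formed an upper set of the EpiLC groups and WT PGCLC, in which neighbouring groups overlapped, and a lower set of sorted mutant cells, with a gap of 1.82 between the sets.

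Unlike Krt8, Krt18 was not higher in WT PGCLC than in WT EpiLC, with a log2 difference of -0.41 ± 0.22 and overlapping arrays. It ran from -0.65 without the first WT PGCLC array to -0.21 without the third. It was at least 6.60-fold lower in Otx2-null PGCLC than in their EpiLC and at least 6.72-fold lower in Otx2/Blimp1-null PGCLC than in theirs. These are bounds, in which an undetected array takes its own value or the dimmest detected signal of that array (4.83 to 5.31), whichever is higher. They depend on the offset, and with an offset of 50 the 2 log2 differences were -2.01 and -2.07. Without cytokines the log2 difference from Otx2-null EpiLC was -2.49 ± 0.22. Otx2-null PGCLC were at least 9.33-fold below WT PGCLC, a log2 difference of -2.45 with an offset of 50. In EpiLC the Otx2-null line was below WT by a log2 difference of -0.91 ± 0.22, and Otx2/Blimp1-null EpiLC lay within the spread of Otx2-null EpiLC, at 0.14 ± 0.22. Both were larger in the authors' normalized values, at -1.61 and 0.34.

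**Figure D1:**
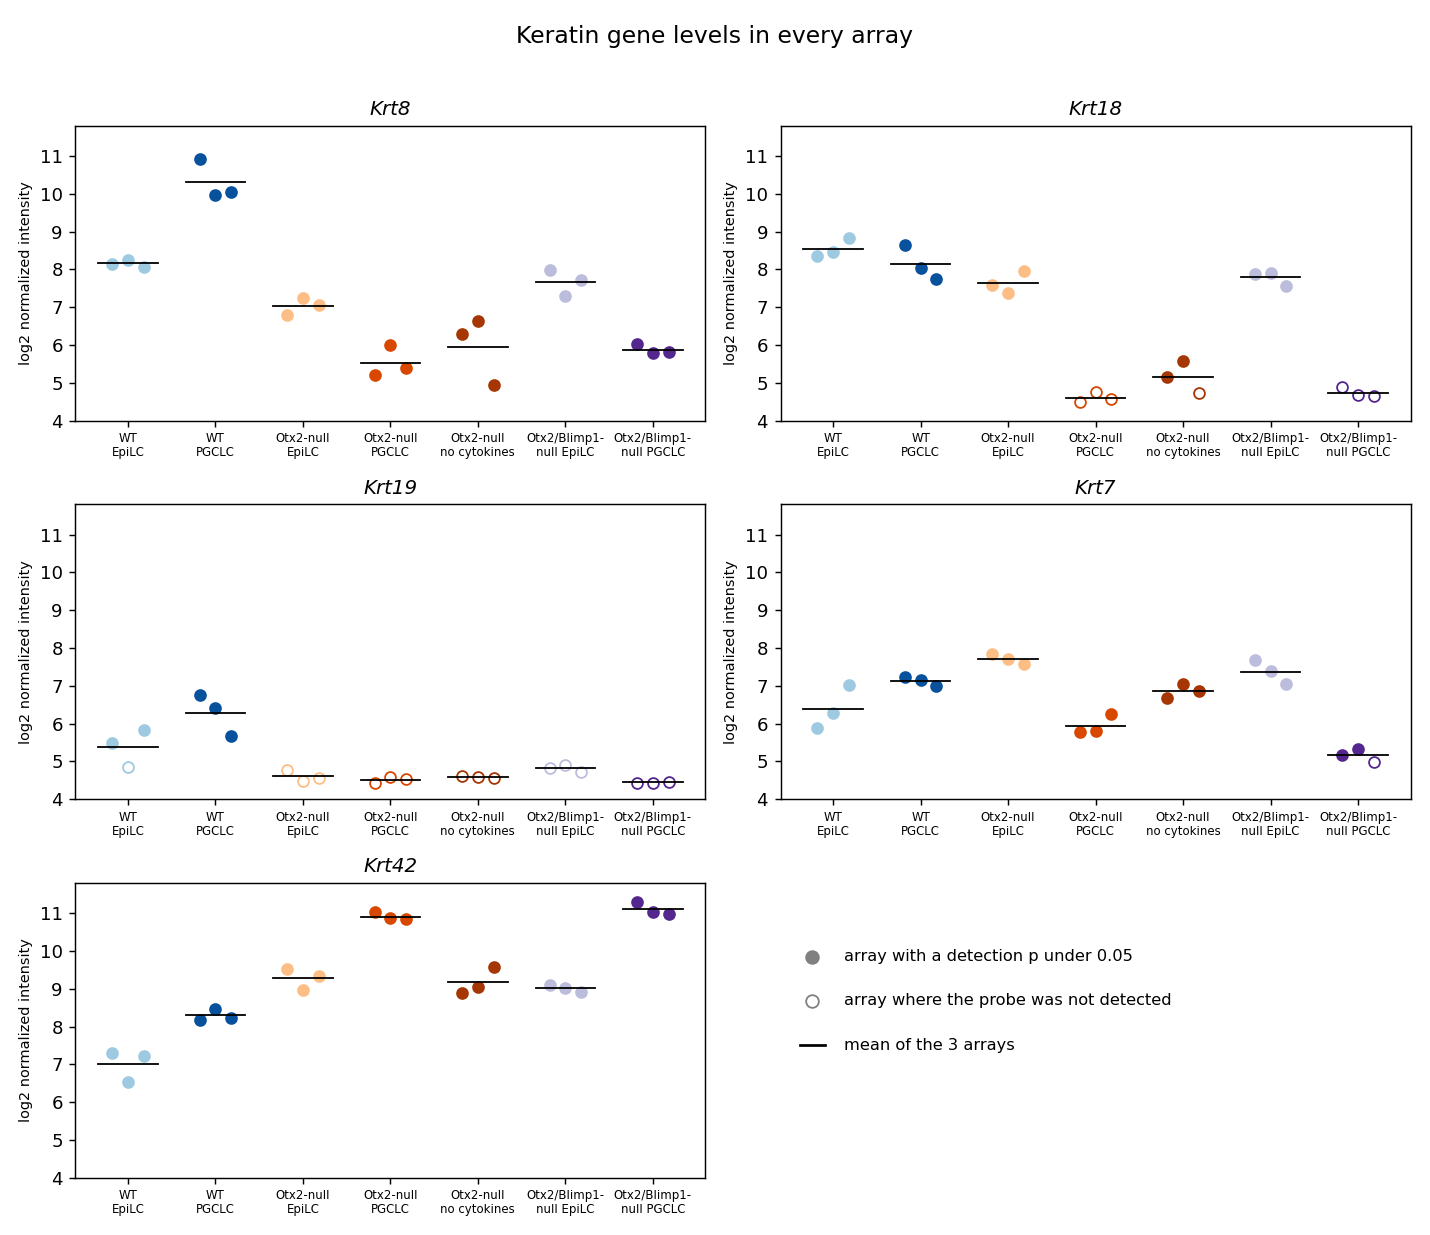
Log2 normalized intensity (vertical axis) of Krt8, Krt18, Krt19, Krt7 and Krt42 in each of the 7 groups (horizontal axis), with 1 point per array, open where the probe was not detected, and a line at the mean of the 3 arrays. Krt8 stood highest in WT PGCLC, Krt18 lay at the detection floor in PGCLC of the mutant lines, Krt19 was detected in WT cells alone, and Krt42 was highest in the PGCLC of the mutant lines.

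Krt8 and Krt18 lie next to each other on chromosome 15 on opposite strands, with their starts facing each other and no protein-coding gene between them in RefSeq's gene table. Of the 5 genes, 4 had a promoter in RefSeq's table for build GRCm38.p6, and Krt19 is named only. The 250 bases before the annotated start are shown for Krt8 and Krt18, the pair whose EpiLC to WT PGCLC step differed, and for Krt42, which ran the other way. They are printed 5′ to 3′ on the strand of the gene, with capitals marking matches to GCCNNNGGC, letters of the AP-2 family. The Krt8 window is chr15:102004343-102004592 on the minus strand, that of Krt18 is chr15:102027966-102028215 on the plus strand and that of Krt42 is chr11:100269952-100270201 on the minus strand.
Krt8: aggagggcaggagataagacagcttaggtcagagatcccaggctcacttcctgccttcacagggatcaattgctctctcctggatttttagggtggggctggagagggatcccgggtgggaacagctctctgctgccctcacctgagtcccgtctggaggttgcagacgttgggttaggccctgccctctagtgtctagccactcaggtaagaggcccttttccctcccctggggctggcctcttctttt
Krt18: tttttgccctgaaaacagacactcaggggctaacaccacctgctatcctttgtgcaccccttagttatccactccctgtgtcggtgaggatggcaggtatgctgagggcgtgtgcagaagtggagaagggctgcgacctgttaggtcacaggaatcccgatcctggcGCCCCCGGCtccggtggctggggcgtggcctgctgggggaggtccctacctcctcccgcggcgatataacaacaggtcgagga
Krt42: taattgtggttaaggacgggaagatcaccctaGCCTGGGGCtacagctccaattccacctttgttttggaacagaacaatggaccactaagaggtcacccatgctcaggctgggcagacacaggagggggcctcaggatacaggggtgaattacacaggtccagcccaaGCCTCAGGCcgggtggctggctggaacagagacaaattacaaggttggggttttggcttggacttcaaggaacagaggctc

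Motifs were searched on both strands of these windows. GCCNNNGGC had 1 match in Krt18, from base -83 to -75 counted back from the start, 2 in Krt42 and 2 in Krt7, and none in Krt8, and 13.7% of 32851 promoters held it. GGGCGG, letters of the Sp and KLF families, matched 4 times in Krt7, one of them overlapping a GCCNNNGGC match, and in no other window, against 32.7% of promoters. TATAAA (12.4% of promoters), the AP-1 letters TGANTCA (6.75%) and the OTX letters TAATCC (6.25%) matched in none of the 4 windows. In the 50 bases after the annotated start or across it, a stretch added after the windows had been seen, Krt8 and Krt42 held TATAAA, against 1.52% of promoters. GC content was 66% in the Krt7 window, 58% in Krt8, 60.4% in Krt18 and 54% in Krt42, against a median of 52.4% over all promoters. These matches describe letters and not binding sites.

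Krt7, a type II keratin of ductal and glandular epithelia, followed another order. Its arrays read 5.89, 6.29 and 7.01 in WT EpiLC and 7.22, 7.14 and 6.99 in WT PGCLC. In Otx2-null cells they read 7.83, 7.72 and 7.57 in EpiLC, 5.78, 5.81 and 6.25 in PGCLC and 6.68, 7.06 and 6.87 without cytokines. In Otx2/Blimp1-null cells they read 7.67, 7.39 and 7.05 in EpiLC and 5.18, 5.33 and 4.99 in PGCLC, where 2 of 3 arrays were detected. Ordered by mean, the groups from Otx2-null EpiLC at 7.70 ± 0.13 down to Otx2-null PGCLC at 5.94 ± 0.26 each overlapped the next, and only Otx2/Blimp1-null PGCLC, at 5.17 ± 0.17, lay clear of its neighbour.

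In WT the Krt7 step from EpiLC to PGCLC was 0.72 ± 0.21 with overlapping arrays. That value was 1.03 without the third WT EpiLC array, the highest of its group, and 0.47 without the first, the lowest. In the Otx2-null line the step was -1.76 ± 0.21 with cytokines and -0.83 ± 0.21 without them, and in the Otx2/Blimp1-null line it was -2.20 ± 0.21, each with arrays clear of each other. Krt7 was higher in Otx2-null than in WT EpiLC by 1.31 ± 0.21 and lower in Otx2-null than in WT PGCLC, at -1.17 ± 0.21. Cells kept without cytokines were above Otx2-null PGCLC by 0.93 ± 0.21, and Otx2/Blimp1-null PGCLC were below Otx2-null PGCLC, at -0.78 ± 0.21. In the authors' normalized values the last 2 differences were 0.32 and -0.03, the step without cytokines was -2.16 and the EpiLC difference was 2.29. With median scaling the step without cytokines was -0.45, and with an offset of 50 the last difference was -0.45 as well.

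Krt19, the smallest type I keratin, was detected in WT cells alone. It read 5.49, 4.85 and 5.83 in WT EpiLC, where 2 of 3 arrays were detected, and 6.76, 6.41 and 5.67 in WT PGCLC, where all were. On the 15 arrays of the mutant lines it lay between 4.43 and 4.91 and was not detected. The WT groups overlapped, with a difference of 0.89 ± 0.22 that was 1.20 without the third WT PGCLC array and 0.62 without the second WT EpiLC array. It was 0.11 in the authors' normalized values and 0.56 with an offset of 50. Krt19 was at least 2.56-fold lower in Otx2-null than in WT PGCLC. By the same reckoning it was 1.07-fold lower in Otx2-null than in WT EpiLC. The latter is not a strict bound, because the second WT EpiLC array was undetected and entered at its own value of 4.85. Both values hold for the offset used: the log2 differences were -0.99 and -0.39 with an offset of 50, and -0.14 and -0.02 in the authors' normalized values. Steps within a mutant line have no measured level on either side and no fold is given.

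Krt42 was lowest in WT EpiLC and highest in PGCLC of the mutant lines, and its 3 probes gave nearly the same order of groups. On the brightest probe the WT EpiLC arrays read 7.30, 6.54 and 7.22 and the WT PGCLC arrays 8.18, 8.46 and 8.23. The Otx2-null arrays read 9.53, 8.96 and 9.34 in EpiLC, 11.02, 10.86 and 10.85 in PGCLC and 8.89, 9.06 and 9.58 without cytokines. The Otx2/Blimp1-null arrays read 9.10, 9.02 and 8.90 in EpiLC and 11.29, 11.04 and 10.99 in PGCLC. The PGCLC groups of the mutant lines overlapped each other and stood 1.31 above the next group, an intermediate set of both mutant EpiLC groups and the cells without cytokines overlapped, and WT PGCLC and then WT EpiLC lay below without overlap.

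Krt42 was higher in PGCLC than in EpiLC by 1.27 ± 0.20 for WT, by 1.63 ± 0.20 for the Otx2-null line and by 2.10 ± 0.20 for the Otx2/Blimp1-null line, while the cells without cytokines stood at -0.10 ± 0.20 from Otx2-null EpiLC. The last value was 0.25 with median scaling and ran from -0.30 to 0.04 when single arrays were left out. Otx2-null exceeded WT by 2.26 ± 0.20 in EpiLC and by 2.62 ± 0.20 in PGCLC, the latter being 6.13-fold. In the authors' normalized values the steps were 2.65 in WT, 1.83 in the Otx2-null and 2.37 in the Otx2/Blimp1-null line. The order of the lines by size of step therefore depends on the normalization. The EpiLC difference between Otx2-null and WT was 3.98 in those values. Without cytokines Krt42 was below Otx2-null PGCLC, at -1.73 ± 0.20. Otx2/Blimp1-null against Otx2-null PGCLC, at 0.20 ± 0.20 with overlapping arrays on the brightest probe, was 0.47 in the mean of the probes and 0.04 with median scaling. The other probes of Krt42 kept these 2 groups clear of each other, with a mean of 9.67 ± 0.21 against 8.75 ± 0.19 on the dimmest. The probe sequences were not used here, so any signal shared with the neighbouring and similar type I genes Krt14, Krt16 and Krt17 was not tested.

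The counts of keratins whose arrays did not overlap are given beside those of all 11649 genes tested. In WT, 2 of the 5 keratins, Krt8 and Krt42, were higher in PGCLC with no overlap between the arrays of the groups, against 37% of all genes higher in this way, and none was lower, against 29.3%. In Otx2-null PGCLC against EpiLC, 1 was higher (36.9% of genes) and 3 were lower (29.8%). Without cytokines none was higher (37%) and 3 were lower (30.5%). In Otx2/Blimp1-null PGCLC against EpiLC, 1 was higher (24.6%) and 4 were lower (27.3%), of which Krt19 was not detected on either side. The median difference of the 5 was 0.89, -1.50, -0.83 and -1.80 in these 4 steps, against 0.06, 0.05, 0.03 and -0.04 over all genes. Since the genes were chosen on these arrays, nothing is read from these counts.

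Between lines, 1 keratin was higher and 4 were lower in Otx2-null than in WT PGCLC, against 16.5% and 21.4% of genes, with a median of -1.35 when undetected genes are set at their bounds. In EpiLC 2 were higher and 3 were lower in Otx2-null cells, against 13.1% and 16.9%, with a median of -0.10 at bounds. Both medians are the Krt19 value at bounds, which is not a strict bound in EpiLC. Krt19 counts among the 3 lower in EpiLC by a gap of 0.07, which rests on an undetected WT array. Cells without cytokines differed from Otx2-null PGCLC without overlap in 2 of the 5, Krt7 higher (17.5% of genes) and Krt42 lower (17.1%). Otx2/Blimp1-null PGCLC had 1 lower than Otx2-null PGCLC, against 33.3%, and none higher, against 23.7%. Otx2/Blimp1-null EpiLC had 1 higher than Otx2-null EpiLC, Krt8, against 17.7%, and none lower, against 12.5%.

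**Figure D2:**
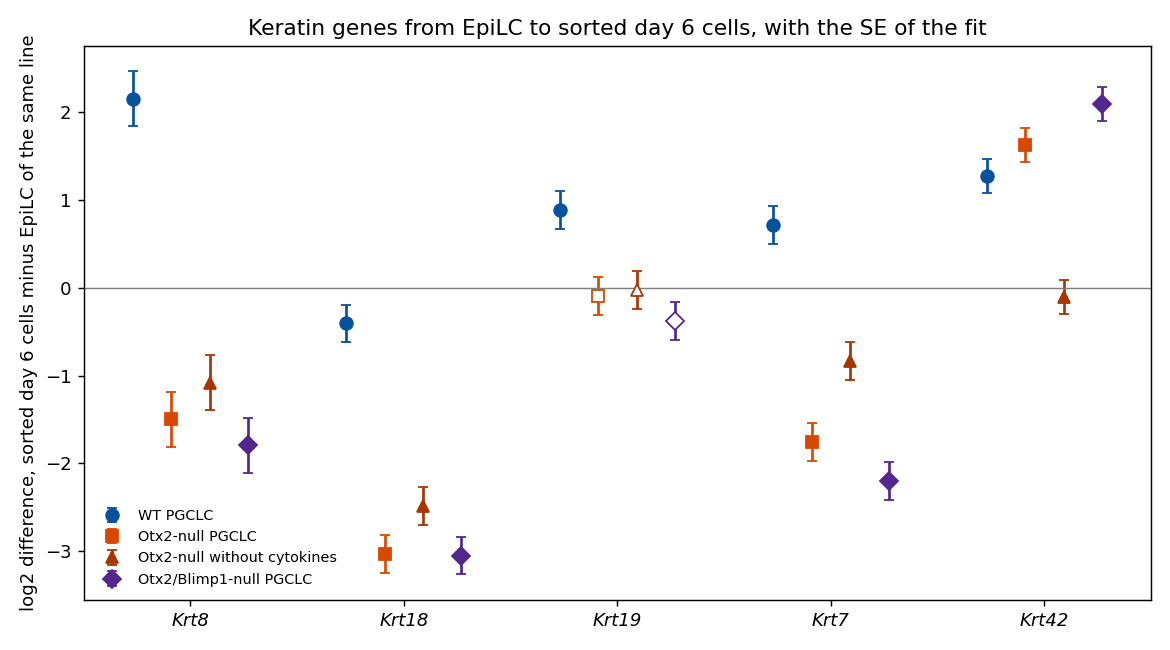
Log2 difference between sorted day 6 cells and EpiLC of the same line (vertical axis) for the 5 keratin genes (horizontal axis), with 1 symbol per setting and bars for the standard error of the fit. Open symbols mark a gene undetected on both sides. Krt8 stood at 2.16 in WT and at -1.50, -1.08 and -1.80 in the other settings, while Krt42 was positive in all PGCLC and -0.10 without cytokines.

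Over the 21 arrays the Pearson correlation of Krt8 was 0.82 with Krt18 and 0.88 with Krt19, and that of Krt42 was -0.84 with Krt18 and -0.71 with Krt8. Krt7 correlated less, at 0.64 with Krt18 and 0.45 with Krt8. The arrays share groups and lines, so these values describe the layout of the 7 groups. Of 11644 other genes, the 3 with the highest correlation with Krt8 were Igfbp5 (0.94), a binding protein of insulin-like growth factors, Anxa3 (0.94), an annexin, and App (0.93), the amyloid precursor protein. For Krt18 they were Ube2e2 (0.97), Tceal5 (0.96) and Flnc (0.95), a filamin. For Krt19 they were Dlk1 (0.96), Ccn1 (0.94) and Acta1 (0.94), an actin of striated muscle. For Krt7 they were Cdkn1c (0.92), an imprinted inhibitor of cyclin-dependent kinases, Tcf12 (0.88) and Slc5a5 (0.88). For Krt42 they were Dennd2c (0.97), Pdyn (0.95) and Aoah (0.90).

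Of the 44 other keratin genes with a named probe, 24 were detected on no array and 10 passed the detection filter. These were not used to choose the 5 genes, and they were tested in the same fit with Benjamini-Hochberg adjustment over all genes. From EpiLC to PGCLC in WT, 2 rose and 3 fell, while 62.8% of all genes passed. Among these, Krt12 passed the detection filter only through EpiLC arrays, and Krt14 and Krt23 only through day 6 arrays. Calls of these genes between EpiLC and day 6 cells are therefore no support. Krt10, a type I keratin of differentiating epidermis, fell in WT by 1.62 ± 0.21, in Otx2-null PGCLC by 2.23 ± 0.21 and without cytokines by 2.73 ± 0.21. In Otx2/Blimp1-null cells Krt10 read 8.68 ± 0.28 in EpiLC and 8.78 ± 0.12 in PGCLC, and did not pass. Krt12, the type I keratin of corneal epithelium, was detected on all 9 EpiLC arrays and on 1 of the 12 day 6 arrays. It was at least 2.65-fold lower in WT PGCLC than in WT EpiLC, and at least 6.72-fold and 6.79-fold lower in Otx2-null cells with and without cytokines. In the authors' normalized values the WT difference of Krt12 was -0.08 and did not pass. In the Otx2-null and Otx2/Blimp1-null steps, 65.4% and 43.2% of all genes passed, and 66% did without cytokines.

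Krt17, a type I keratin of stressed and wounded epidermis that neighbours Krt42, was higher in the Otx2-null line at both stages. Its arrays read 7.02, 6.85 and 6.61 in WT EpiLC and 9.64, 9.55 and 9.64 in Otx2-null EpiLC, a rise of 2.78 ± 0.24 (limma adjusted p = 1.33e-08). They read 6.23, 6.08 and 5.89 in WT PGCLC and 8.18, 8.52 and 8.84 in Otx2-null PGCLC, a rise of 2.45 ± 0.24 (limma adjusted p = 8.95e-08). No Otx2-null array overlapped a WT array of the same stage, while 18.7% of all genes passed the test in EpiLC and 21.3% in PGCLC. Krt17 fell from Otx2-null EpiLC to PGCLC by 1.09 ± 0.24, where Krt42 was higher by 1.63 ± 0.20. It was lower without cytokines than in Otx2-null PGCLC by a log2 difference of -1.71 ± 0.24, and Krt42 was lower there by -1.73 ± 0.20.

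Krt14, a type I keratin of basal epidermis, was detected on the 3 WT PGCLC arrays, at 7.04, 6.35 and 5.56, and on no other array. It was at least 2.25-fold higher in WT PGCLC than in WT EpiLC and at least 2.63-fold lower in Otx2-null than in WT PGCLC. Krt14 passed the detection filter only through the WT PGCLC arrays in which it is high, so it had to differ there and its calls are no support. In the authors' normalized values these Krt14 differences were 0.28 and -0.28 and did not pass. Krt23, a type I keratin, was at least 1.30-fold higher in WT PGCLC and at least 1.99-fold higher in Otx2/Blimp1-null PGCLC than in their EpiLC, and rose from Otx2-null to Otx2/Blimp1-null PGCLC by 1.15 ± 0.14. Krt10 rose in that comparison by 1.41 ± 0.21, where 48.3% of all genes passed. Krt10 was lower in Otx2/Blimp1-null than in Otx2-null EpiLC, at -0.92 ± 0.21, where 16% of all genes passed. In EpiLC, Krt12 rose from WT to Otx2-null cells by 1.39 ± 0.14. Calls for Krt10 in EpiLC, Krt17 in the WT step (lower by -0.76 ± 0.24), Krt23 between Otx2-null and WT PGCLC and Krt82 in the Otx2-null step (at least 1.33-fold lower) did not pass in the authors' normalized values. Nor did Krt10 between the mutant EpiLC groups pass without the first Otx2/Blimp1-null array (-0.76), Krt23 between Otx2-null and WT PGCLC without the first WT (-0.43) or the third Otx2-null array (-0.47), or Krt82 without the second (-0.54) or the third (-0.34) EpiLC or the third PGCLC array (-0.54). Krt15, Krt20, Krt78 and Krt222 passed in no comparison between 2 groups.

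**Figure D3:**
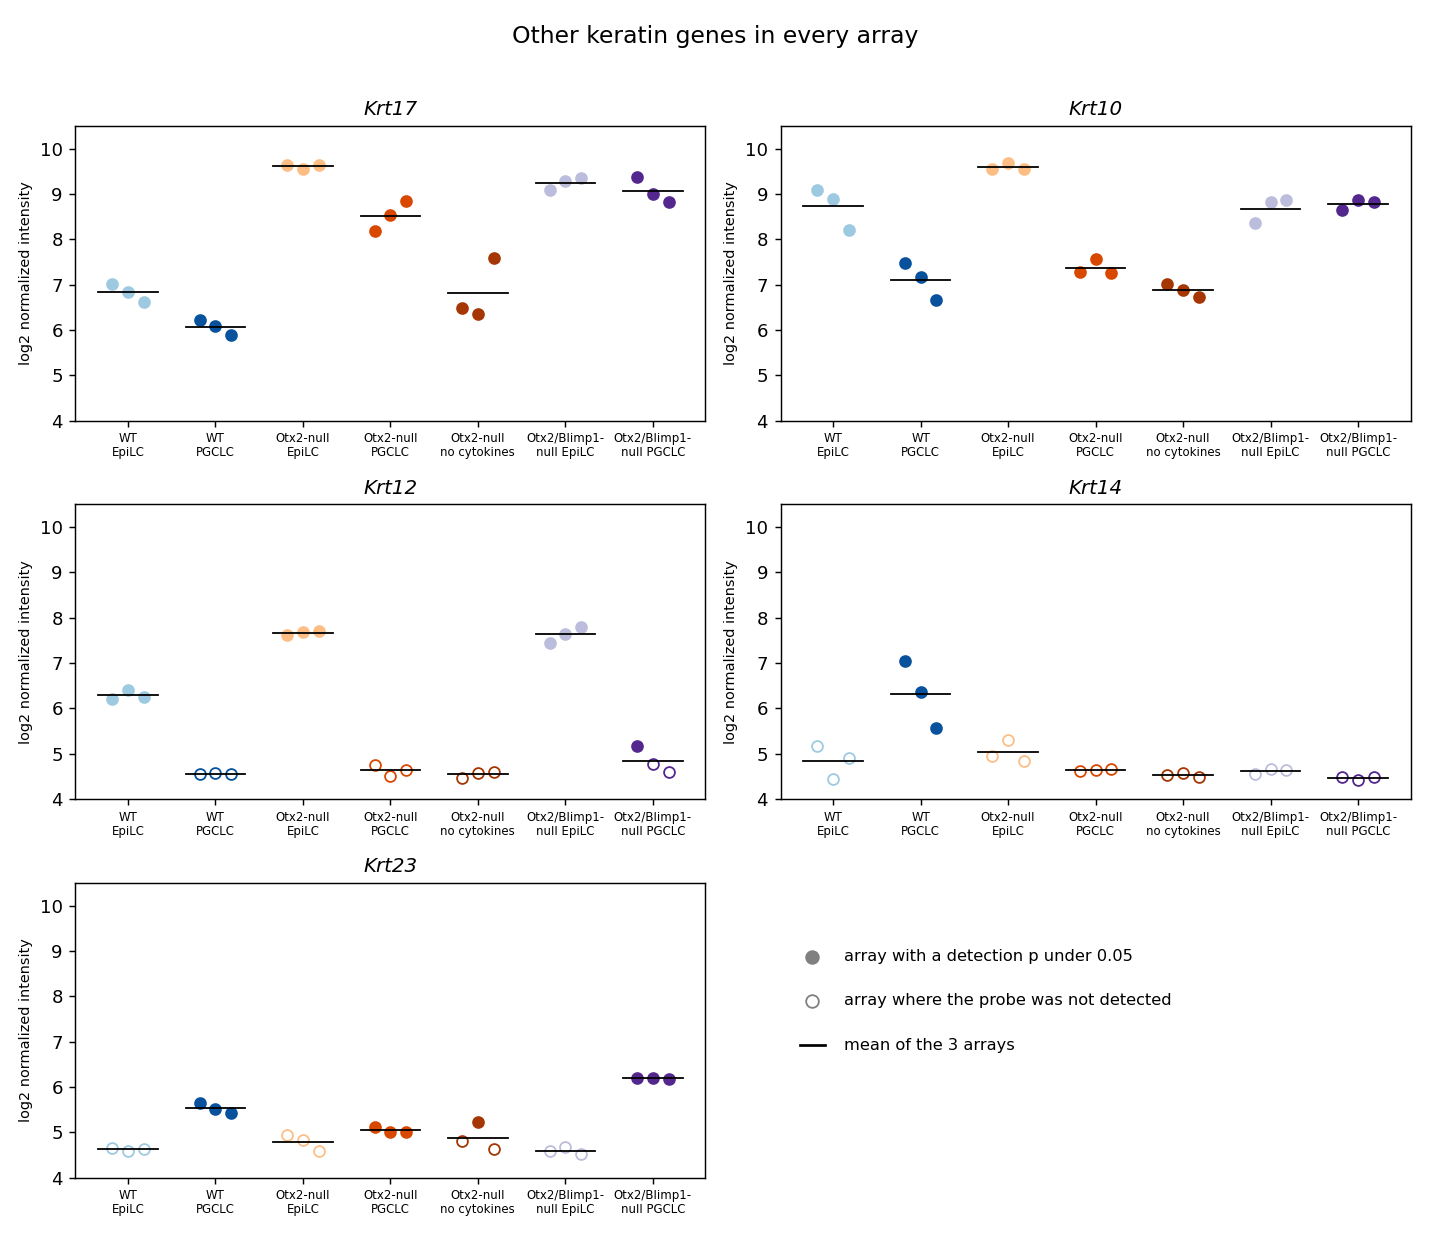
Log2 normalized intensity (vertical axis) of Krt17, Krt10, Krt12, Krt14 and Krt23 in each of the 7 groups (horizontal axis), with 1 point per array, open where the probe was not detected, and a line at the mean of the 3 arrays. Krt17 lay higher in Otx2-null than in WT cells at both stages, Krt12 was detected in EpiLC and on 1 day 6 array, and Krt14 was detected in WT PGCLC alone.

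Genes beside the keratins were compared where they were tested. Eif4b, a translation initiation factor next to Krt18, fell from WT EpiLC to WT PGCLC by 1.45 ± 0.24, where Krt18 stood at -0.41, and rose from WT to Otx2-null PGCLC by 1.12 ± 0.24, where Krt18 was lower. In the mean of the Eif4b probes these values were -0.35 and 0.38 and neither passed. Tns2, beyond Eif4b, passed in no comparison between 2 groups. Spryd3, beyond Tns2, rose from EpiLC to PGCLC by 1.31 ± 0.18 in WT and was at least 2.04-fold higher in the Otx2-null step and at least 2.15-fold higher without cytokines, where Krt18 was lower. Hap1, the third gene on the side of Krt42 away from the keratins, rose from EpiLC to PGCLC by 2.89 ± 0.19 in WT and by 4.20 ± 0.19 in Otx2-null cells. It rose by 2.52 ± 0.19 without cytokines, where Krt42 stood at -0.10, and was lower without cytokines than in Otx2-null PGCLC, at -1.68 ± 0.19. In the mean of the Hap1 probes the steps were smaller, at 1.57 in WT, 1.77 in Otx2-null PGCLC and 0.83 without cytokines. The difference between cells without cytokines and Otx2-null PGCLC was -0.94 there, and each of these values passed. Hap1 did not pass between Otx2-null and WT PGCLC, at 0.34 ± 0.19. It was lower in Otx2-null than in WT EpiLC, at -0.96 ± 0.19, where Krt42 was higher, but at 0.04 and not passing in the mean of the Hap1 probes.

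Genes that carry, bind or modify keratin filaments were taken from fixed lists chosen with earlier results of these data known. Of 13 tested desmosome and linker genes, 7 rose and 2 fell from WT EpiLC to WT PGCLC, with a median of 0.77 against 0.06 over all genes, of which 62.8% passed. Dst, of this list, was undetected on every EpiLC array and passed the detection filter only through day 6 arrays, so any call of it here is no support. Itgb4, the hemidesmosome integrin that anchors keratin filaments, rose by 2.54 ± 0.20, Dsg2, a desmosomal cadherin of simple epithelia, by 2.08 ± 0.19 and Pkp4, a plakophilin, by 1.83 ± 0.14. Cd151, a tetraspanin partner of integrins, fell by 1.63 ± 0.14 and Pkp2, another plakophilin, by 0.77 ± 0.18. Of 19 genes that bind, modify or cleave keratins, 12 rose and 2 fell in this step, with a median of 0.51. Hspb1, a small heat shock protein, rose by 3.49 ± 0.23 and Mapk14, a stress kinase, by 1.77 ± 0.16, and Casp6, a caspase that cuts type I keratins, fell by 1.12 ± 0.14.

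Between Otx2-null and WT PGCLC 21.3% of all genes passed. Of the 13 linkers 1 was higher and 1 lower, with a median of -0.02 against -0.03 over all genes, and of the 19 binding genes none was higher and 3 were lower, with a median of -0.12. Plec, the linker plectin, fell by 0.93 ± 0.17, Casp6 by 0.71 ± 0.14 and Fam83h, which recruits casein kinase to keratins, by 0.72 ± 0.18. Of 11 other intermediate filament genes 1 was higher and 5 were lower, with a median of -0.31. Nes, the filament protein of neural precursors, fell by 1.39 ± 0.22, Ina, a neuronal filament protein, by 1.42 ± 0.27, and Lmnb2, a nuclear lamin, rose by 0.62 ± 0.15. Cells without cytokines differed from Otx2-null PGCLC in 4 of the 11, where 15.7% of all genes passed. Vim, the filament protein vimentin of mesenchyme, fell by 2.56 ± 0.18 and Lmna, a nuclear lamin, by 1.64 ± 0.19, and Ina rose by 2.06 ± 0.27 and Synm by 1.09 ± 0.16.

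In Otx2/Blimp1-null against Otx2-null PGCLC, 8 linkers fell and 2 rose of 13, with a median of -0.98 (-0.96 with undetected genes at their bounds), 10 binding genes fell and 2 rose of 19, with a median of -0.57 (-0.44 at bounds), and 13 of 17 epithelial surface and junction genes fell with none rising, with a median of -0.94. The median over all genes was -0.07, and 48.3% of them passed. Pkp4 fell by 1.40 ± 0.14, the stress kinase gene Mapk9 by 1.19 ± 0.16, Esrp1, an epithelial splicing factor, by 3.16 ± 0.22, Cdh3, the P-cadherin gene, by 2.51 ± 0.18 and Cldn6, a claudin, by 1.73 ± 0.18. Cd151 rose by 0.67 ± 0.14 and Casp6 by 0.61 ± 0.14. Krt8, at 0.34 ± 0.31, and Krt42, at 0.20 ± 0.20, had overlapping arrays in this comparison, and Krt18 was not detected on either side.

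The same 17 epithelial genes went the other way in cells without cytokines, with 11 higher and 1 lower than in Otx2-null PGCLC and a median of 0.83 against 0.01 over all genes, of which 15.7% passed. Esrp2, a further splicing factor, rose by 1.93 ± 0.25, Prss8, a membrane protease, by 1.50 ± 0.22, Esrp1 by 1.49 ± 0.22 and Cldn4, a claudin, by 1.00 ± 0.15, and Spint1, a protease inhibitor, fell by 1.41 ± 0.15. Krt8 was at 0.42 ± 0.31 there with overlapping arrays, and ran from 0.08 without the second to 0.92 without the third array of the cells kept without cytokines. Between Otx2-null and WT PGCLC 3 of the 17 were lower and none higher, where 21.3% of all genes passed, among them Cldn4 at -0.76 ± 0.15.

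Of 26 tested regulators of simple epithelial keratin genes, 19 rose and 2 fell from WT EpiLC to WT PGCLC, with a median of 1.46, or 1.11 with undetected genes at their bounds, while 62.8% of all genes passed. Jun, Gata3, Cdx2, Esr1 and Snai2 were undetected on every EpiLC array and passed the detection filter only through day 6 arrays. They are part of the count tested and of the median, and any call of them in this step is no support. Tfap2c, an AP-2 factor of trophoblast and early germ cells, rose by 7.93 ± 0.16, Elf3, an ETS factor of epithelia, by 4.36 ± 0.18 and Klf5, a zinc finger factor of epithelia and pluripotent cells, by 4.21 ± 0.18. Cdx2, a trophectoderm and gut factor, was at least 7.13-fold higher. Ovol2 and Grhl2, epithelial factors, fell by 0.79 ± 0.16 and 0.64 ± 0.16. Between Otx2-null and WT PGCLC 10 were lower and 2 higher, with a median of -0.09, where 21.3% of all genes passed. Cdx2 was at least 8.32-fold lower in Otx2-null PGCLC and Gata3 at least 2.53-fold, and both passed the detection filter only through the WT PGCLC arrays, while Ets1 fell by 2.39 ± 0.17 and the AP-1 gene Jun by 1.31 ± 0.15, and Klf5 rose by 0.71 ± 0.18. The Klf5 call did not pass without the first WT PGCLC array. In Otx2/Blimp1-null against Otx2-null PGCLC 7 were lower and 1 higher, against 48.3% of all genes that passed, with Tfap2c lower by -1.95 ± 0.16, Klf5 by -1.16 ± 0.18 and Elf3 by -0.84 ± 0.18. Without cytokines 4 were higher and 4 lower than in Otx2-null PGCLC, where 15.7% of all genes passed, with Ovol1 at 1.28 ± 0.18 and Tfap2c at 0.82 ± 0.16, and Klf4 at -2.27 ± 0.19 and Zeb1, a repressor of epithelial genes, at -0.88 ± 0.18.

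Levels of markers of other cell types are set beside those of the keratins, and 21.3% of all genes passed between Otx2-null and WT PGCLC. The mean log2 level of 9 trophoblast and amnion markers ran from 6.39 to 6.61 in WT PGCLC and from 5.49 to 5.73 in Otx2-null PGCLC, with 6 of the 9 lower and 1 higher, Tead4 at 0.47 ± 0.14. Tead4 did not pass in the mean of its probes or without the third WT or the first or second Otx2-null PGCLC array. Gata2 was lower by -0.79 ± 0.17 and Wnt6 by -1.39 ± 0.21, beside Cdx2 and Gata3. Cdx2 and Gata3 passed the detection filter only through the WT PGCLC arrays, so they had to be lower and they raise the WT PGCLC mean. Elf5, Hand1, Prl2c2 and Tpbpa were detected on no WT PGCLC array. The 9 endoderm markers ran from 6.55 to 6.65 and from 6.02 to 6.11, with 3 lower and 2 higher, and a median of -0.08 against -0.03 over all genes. The lower were Amn at -2.51 ± 0.23, Gata6 at -2.22 ± 0.21 and Dab2 at -1.43 ± 0.17, and the higher were Apoe at 0.48 ± 0.15 and Hhex at 0.70 ± 0.23. Foxa2, Gata4, Afp, Ttr, Apoa1, Cer1 and Cubn were undetected in WT PGCLC. The Gata6 call was -1.24 and did not pass in the authors' normalized values. Apoe did not pass without the first or second WT or the first or the third Otx2-null PGCLC array, nor Hhex without the second or the third WT array or any 1 of the Otx2-null PGCLC arrays.

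The mean of the 8 mesoderm markers ran from 5.86 to 6.24 in WT PGCLC and from 4.90 to 4.94 in Otx2-null PGCLC. Their median difference was -0.21 against -0.03 over all genes, and 6 of the 8 did not pass. The 2 that passed were Acta2, a smooth muscle actin, at -6.40 ± 0.24 and Snai1 at -1.81 ± 0.21, and they weigh heavily in the mean. Mixl1, Mesp1, Hand1, Hand2, Kdr and Foxf1 were undetected in WT PGCLC. The 10 surface ectoderm markers ran from 6.00 to 6.36 and from 5.64 to 5.71, with 6 lower and 1 higher. Tfap2a and Wnt6 stand in both this list and the trophoblast list, so these lists are not independent. Krt14, which had to be lower through the filter, and Lgals7 (-1.76 ± 0.21, not passing in the authors' normalized values) were among the lower. Krt17 was the higher, and Trp63, Krt5, Dlx5 and Perp were undetected in WT PGCLC. In Otx2/Blimp1-null PGCLC these ranges were 5.23 to 5.32, 5.89 to 6.06, 4.83 to 5.04 and 5.79 to 5.92, in the same order of lists. In EpiLC, where Krt8 was lower in the Otx2-null line than in WT, the trophoblast list ran at 4.74 to 4.80 in that line against 4.61 to 4.65. Of its 9 markers, 0 were detected on WT EpiLC arrays and 0 to 1 on Otx2-null EpiLC arrays. These means therefore compare almost wholly undetected signals. The surface ectoderm list ran at 5.58 to 5.82 in Otx2-null EpiLC against 5.17 to 5.32 in WT. It holds Krt17, which read 9.61 in Otx2-null and 6.83 in WT EpiLC. Neither list difference was tested. From Otx2-null EpiLC to PGCLC, where Krt8 was also lower, the trophoblast list mean was higher in PGCLC. The trophoblast markers passed the detection filter almost wholly through day 6 arrays, so that mean had to be higher and is no support. In this step 3 of the 9 rose and none fell, with a median of 0.30, while 65.4% of all genes passed. The endoderm list mean, 5.53 to 5.75 in Otx2-null EpiLC, was also higher in PGCLC, with 4 of its 9 markers higher and 2 lower. The first WT PGCLC array was the highest of its group for Krt8, Krt18 and Krt19 and for the trophoblast, mesoderm and surface ectoderm lists. The part of such cells in the keratin levels was not tested.

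**Figure D4:**
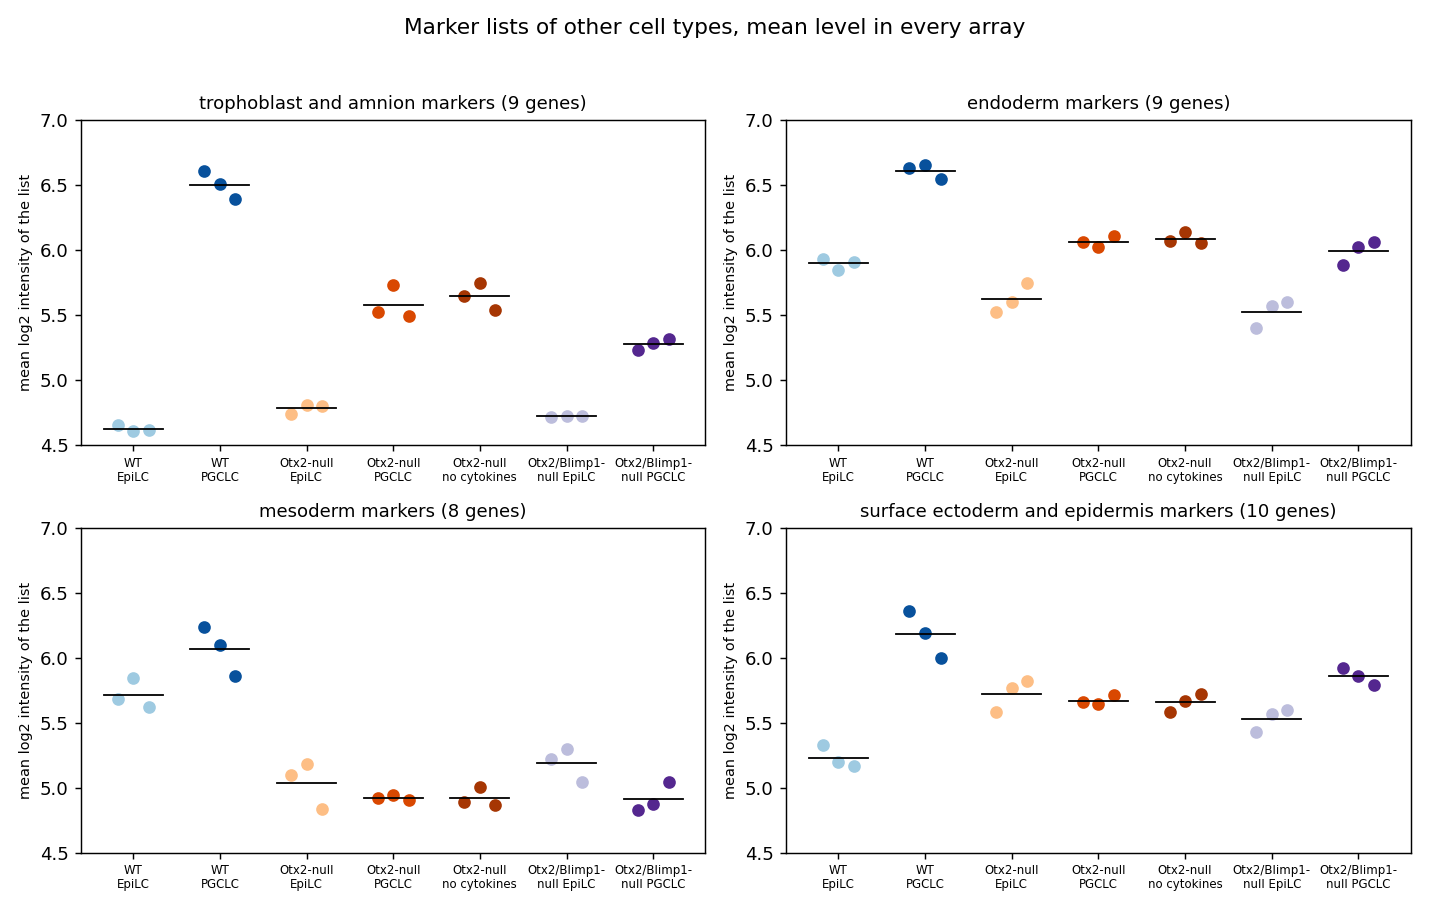
Mean log2 intensity of 4 lists of markers of other cell types (vertical axis) in each of the 7 groups (horizontal axis), with 1 point per array and a line at the mean of the 3 arrays. WT PGCLC arrays lay above all other arrays for the trophoblast list, at 6.39 to 6.61. Cdx2 and Gata3 in that list passed the detection filter only through WT PGCLC arrays. EpiLC arrays lay lowest on that list, with 0 to 2 of its 9 genes detected per array.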

How the data were processed

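RNA (100 ng per sample) was hybridised to 21 mouse bead arrays, 7 groups of 3. The deposited tables hold probe intensity, not normalized by the authors, with a detection p-value per probe and array, per the file headers, and the authors' normalized log2 values of the same arrays. The submitters' processing notes name limma, with no version given. The intensity column of Otx2-null PGCLC replicate 2 was deposited in another probe order, with a rank correlation of 0.00547 with the same array's normalized column, and was put in order by the ranks of that column. Values of that array therefore rest on the authors' normalized column for their probe identity.

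The intensities were processed with neqc of limma 3.58.1 (R 4.3.3), which corrects background from the detection p-values, adds an offset (here 16), quantile normalizes and takes log2. Of 45281 probes, 34885 are annotated to 1 gene, 18 to several and 10378 to none in the platform annotation, which can be old. Probes detected on at least 3 arrays (21647) were kept, and the brightest probe stood for a gene, giving 11649 genes. One limma fit (lmFit, eBayes) with group as its factor covered all arrays, and p-values were adjusted by Benjamini-Hochberg over all genes at a threshold of 0.05. The fit was run on simulated data with independent noise between arrays and changes in the first group of a comparison only. That setting holds far fewer changed genes than the steps here, so it checks the code and not the calls. Summaries and plots used data.table (version 1.17.8), Python 3.11.15, pandas 2.3.3, numpy 2.4.6 and matplotlib 3.10.9.

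The 5 keratins, the gene lists and the tests were chosen with earlier results of these data known. Besides the 5 keratins, the genes eligible to be named were every other keratin that passed the filter, up to 4 genes of each list with the smallest p among those that passed, genes that went against their list, the markers of the identity lists and the 3 genes most correlated with each keratin. The values shown are part of those eligible. Gene neighbours were named for their position. The alternatives were the authors' normalized values, an offset of 50, median scaling, other detection filters, the mean of a gene's probes, only the compared groups, a replicate block and leaving out each array.

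Replicate numbers are shared between groups in the labels. Deviations of same-numbered arrays from their group means correlated between -0.13 and 0.32, and all 3 pairs exceeded 0.1 only for Otx2-null against WT EpiLC (0.14, 0.29 and 0.16). By the mean correlation of these deviations with arrays of the other groups, 13 of the 21 arrays were closest to their own number. Nothing in the labels ties a number to a shared culture or day.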

Additional observations from a re-analysis of the deposited data

Results flagged for a closer look

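The step from EpiLC to PGCLC differed in direction between lines for Krt8, with every WT PGCLC array above every WT EpiLC array and every Otx2-null PGCLC array below every Otx2-null EpiLC array. The Otx2-null step minus the WT step was -3.66, and this difference was not tested, because Krt8 was chosen on these arrays.

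The same difference between steps was tested for the other keratins with the interaction term of the limma fit. It was -1.87 for Krt14, -1.31 for Krt12 (adjusted p = 8.89e-05) and -0.65 for Krt23 (adjusted p = 0.0301), among 1913 of 11649 genes that passed. Krt12 was undetected in both PGCLC groups and Krt23 in both EpiLC groups, so neither value is a difference of measured steps. Krt14 was undetected in the other 3 of the 4 groups and passed the detection filter only through WT PGCLC, so no p is given for it. In the authors' normalized values the Krt14 and Krt23 differences were -0.29 and -0.02 and did not pass. The Krt23 difference, at -0.65 to -0.57, also did not pass without the second WT EpiLC, the first or second WT PGCLC, the first or second Otx2-null EpiLC, or the second or the third Otx2-null PGCLC array.

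Between the Otx2/Blimp1-null and the Otx2-null step the difference was 2.33 for Krt10 (adjusted p = 1.32e-06), 1.34 for Krt23 (adjusted p = 1.09e-05) and 0.92 for Krt17 (adjusted p = 0.0264), among 5686 genes that passed. Krt23 was undetected in both EpiLC groups, so its value rests on unmeasured levels. The Krt17 value was 0.52 with median scaling (adjusted p = 0.198) and 1.19 in the authors' normalized values (adjusted p = 0.149), and passed in neither. It also did not pass without a detection filter, or without the first array of Otx2-null PGCLC (0.75), of Otx2/Blimp1-null EpiLC (0.85) or of Otx2/Blimp1-null PGCLC (0.77).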

How the results depend on the processing

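The counts of genes that passed stayed within 1.5 times the main count in all 11 comparisons under the authors' normalized values, an offset of 50, the mean of probes and each detection filter. Exceptions arose elsewhere. With only the compared groups in the fit, 1047 genes passed between Otx2-null and WT EpiLC in place of 2183, and 36 between Otx2/Blimp1-null and Otx2-null EpiLC in place of 1863. The latter count was 3112 with median scaling and 603 to 1853 when 1 array was left out, with 603 without the first Otx2/Blimp1-null EpiLC array and 1169 without the third Otx2-null EpiLC array. The smaller fits hold fewer arrays; the cause of the other changes was not tested. With the replicate number as a block, between 1826 and 7731 genes passed, and neither a count nor a call of a named gene changed side.

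Median scaling moved the median over all genes to 0.18, 0.26 and 0.24 in the WT, Otx2-null and no-cytokine steps, to -0.17 between Otx2/Blimp1-null and Otx2-null PGCLC, to -0.14 and 0.19 in the EpiLC comparisons of Otx2-null with WT and Otx2/Blimp1-null with Otx2-null, and to 0.12 and -0.37 for the differences between steps. It put 68.4% of Otx2-null step calls higher in place of 54.8%, 67.2% without cytokines in place of 54.3%, 19.0% between Otx2-null and WT EpiLC in place of 43.9%, 91.1% between the mutant EpiLC in place of 61.2%, and 65.7% and 24.2% for the differences between steps in place of 48.6% and 41.2%.

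Of 55 keratin differences, 33 moved by more than the spread between arrays in the authors' normalized values, 18 with an offset of 50, 7 with median scaling and 2 in the mean of probes. In the authors' values Krt8 in Otx2-null against WT PGCLC was -6.08 and Krt19 was -0.14. Under median scaling Krt42 without cytokines against Otx2-null EpiLC was 0.25 in place of -0.10. In the mean of probes the Hap1 difference between Otx2-null and WT EpiLC turned from -0.96 to 0.037. Leaving out 1 array moved 8 of 390 values, and leaving out the reordered array moved none. Probes near the detection floor, as for Krt18 and Krt19 in mutant PGCLC, give only bounds.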
